A study of Saccharomyces cerevisiae with 24 samples.

Results

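Nitrogen catabolite repression in the budding yeast Saccharomyces cerevisiae is carried out by 4 transcription factors of the GATA family and the protein that binds one of them. The activators are GLN3 (systematic name YER040W) and GAT1 (YFL021W), the repressors are DAL80 (YKR034W) and GZF3 (YJL110C), and URE2 (YNL229C) encodes the partner of Gln3. These 5 genes were taken by their symbols in the platform's annotation, and each was read by 1 probe set. They are described here among 5449 genes measured on Affymetrix expression arrays.

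Each array measured the RNA of 1 aerobic chemostat culture, and 24 cultures were grown in 8 groups of 3. The strains were snf1Δtor1Δ, which lacks both SNF1 and TOR1, snf1Δ, which lacks SNF1, tor1Δ, which lacks TOR1, and a reference strain labelled as wild type. SNF1 encodes the yeast AMP-activated kinase, which is needed when glucose is scarce, and TOR1 encodes a kinase of the growth-promoting complex TORC1. Every strain was grown under ammonia limitation (N-lim), in a medium with 1 g/L ammonium sulfate, and under glucose limitation (C-lim), in a medium with 10 g/L glucose. All cultures shared a dilution rate of 0.1 per h, 30 °C and pH 5.0, and were harvested at steady state. The 3 arrays of a group are biological replicates according to the design, and the strain background is not stated in the labels.

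When a preferred nitrogen source is plentiful, Gln3 and Gat1 are kept out of the nucleus, Gln3 through its binding to Ure2, and genes for the uptake and breakdown of poorer sources stay silent. When nitrogen runs short or TORC1 is inhibited, Gln3 and Gat1 enter the nucleus and bind GATA motifs in the promoters of these genes. Dal80 and Gzf3 bind the same motifs and repress, and GAT1 and DAL80 are themselves targets of the system, so the factors form a loop. Snf1 has been reported to phosphorylate Gln3 when glucose is lacking.

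Values are log2 array signals, so a difference of 1 is a doubling. Array medians lay between 7.80 and 7.99, and arrays of the same group correlated at 0.993 to 0.999 across genes. SNF1 averaged 2.15 in all 4 groups that lack it, against 8.75 to 8.95 in the groups that carry it. TOR1 averaged 2.27 in the groups that lack it, against 6.94 to 7.86 elsewhere. The arrays thus go with their strain labels, and these values do not check the medium labels. A group mean under log2 3 is called the floor here, and none of the 5 genes reached it. Only 3 arrays per group limit the precision of every value. Whether the arrays of groups overlap is given below as a description, and the share of all genes without overlap was not counted. Bulk RNA per culture does not tell fewer cells that express a gene apart from less of its RNA in each cell. Centring each array on its median moved the median change of all genes in the reference strain, N-lim against C-lim, to -0.03, against 0.08 as deposited, and turned a split of 2259 higher and 1402 lower genes into 1845 higher and 2024 lower. A change of about 0.1 is no larger than this shift.

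**Figure D1:**
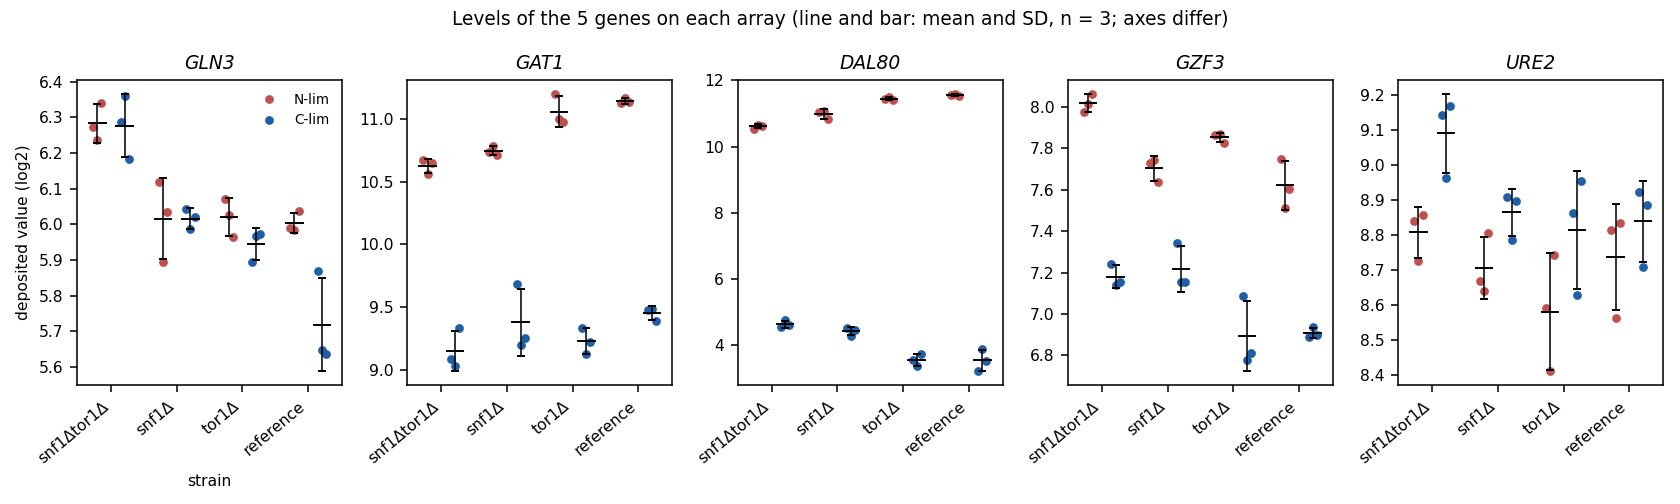
Deposited log2 value of GLN3, GAT1, DAL80, GZF3 and URE2 (1 panel each, with its own axis) on each of the 24 arrays, by strain along the horizontal axis and by medium in colour, with the mean and SD of the 3 arrays of a group. DAL80 lies between 10.54 and 11.59 on every N-lim array and between 3.22 and 4.75 on every C-lim array, while the ranges of N-lim and C-lim arrays touch or cross in GLN3 and URE2.

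The first question was how the 5 genes differ between nitrogen-limited and carbon-limited cultures. In the reference strain 4 of the 5 were higher in N-lim (GLN3, GAT1, DAL80 and GZF3) and URE2 was not called. In the same comparison 67.2% of all genes were called in either direction, 41.5% as higher and 25.7% as lower, so the number of calls by itself does not set these genes apart. The calls are from limma, fitted over all 24 arrays, with Benjamini-Hochberg adjustment over all genes and a threshold of 0.05. GAT1, DAL80 and GZF3 were called higher in N-lim in all 4 strains, and GLN3 passed the threshold in the reference strain and in no deletion strain. The number called was 4 of 5 in snf1Δtor1Δ (background 58.6% of genes), 3 of 5 in snf1Δ (55.4%) and 4 of 5 in tor1Δ (64.9%).

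DAL80, the inducible repressor of the nitrogen catabolic genes, had by far the widest range of the 5. In snf1Δtor1Δ it lay at 10.54, 10.66 and 10.64 in N-lim, against 4.55, 4.75 and 4.61 in C-lim. In snf1Δ it lay at 11.03, 11.09 and 10.82 in N-lim, against 4.53, 4.29 and 4.46 in C-lim. These are the strains without Snf1, and their N-lim arrays are the lower and their C-lim arrays the higher ones of the whole set. In tor1Δ it lay at 11.45, 11.51 and 11.39 in N-lim, against 3.56, 3.38 and 3.72 in C-lim. In the reference strain it lay at 11.55, 11.59 and 11.53 in N-lim, against 3.22, 3.88 and 3.53 in C-lim. No N-lim array came near a C-lim array in any strain.

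The change of DAL80 between media was 62.9-fold in snf1Δtor1Δ, 94.0-fold in snf1Δ, 239-fold in tor1Δ and 259-fold in the reference strain. On the log2 scale these are 5.97, 6.55, 7.90 and 8.02, each with a standard error of 0.12, and the largest limma adjusted p among them was 2.69e-17. By absolute size of change DAL80 stood at rank 5 of all genes in snf1Δtor1Δ, rank 4 in snf1Δ, rank 12 in tor1Δ and rank 9 in the reference strain. Its C-lim values lie close to the floor of log2 3, and the part of this in the folds was not tested.

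GAT1, which encodes the activator that is itself under nitrogen control, was second in size. In snf1Δtor1Δ it lay at 10.67, 10.56 and 10.65 in N-lim, against 9.09, 9.03 and 9.33 in C-lim, and in snf1Δ at 10.74, 10.78 and 10.71 in N-lim, against 9.68, 9.20 and 9.26 in C-lim. In tor1Δ it lay at 11.20, 11.001 and 10.97 in N-lim, against 9.33, 9.13 and 9.22 in C-lim. In the reference strain it lay at 11.13, 11.17 and 11.13 in N-lim, against 9.48, 9.49 and 9.39 in C-lim. Every N-lim array was at least as high as 10.56 and every C-lim array at most 9.68, so the media did not overlap. GAT1 was 2.78-fold higher in N-lim in snf1Δtor1Δ, 2.58-fold in snf1Δ, 3.55-fold in tor1Δ and 3.22-fold in the reference strain, with a standard error of 0.10 on the log2 scale and a limma adjusted p of at most 1.47e-09.

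GZF3, which encodes the other repressor, changed less. In snf1Δtor1Δ it lay at 7.98, 8.01 and 8.06 in N-lim, against 7.24, 7.14 and 7.15 in C-lim, and in snf1Δ at 7.73, 7.75 and 7.64 in N-lim, against 7.34, 7.15 and 7.15 in C-lim. In tor1Δ it lay at 7.86, 7.87 and 7.83 in N-lim, against 7.09, 6.78 and 6.81 in C-lim. In the reference strain it lay at 7.75, 7.51 and 7.60 in N-lim, against 6.89, 6.94 and 6.90 in C-lim. Within each strain the arrays of the media did not overlap. GZF3 was 1.79-fold higher in N-lim in snf1Δtor1Δ, 1.40-fold in snf1Δ, 1.95-fold in tor1Δ and 1.64-fold in the reference strain, with a standard error of 0.072 on the log2 scale and a limma adjusted p of at most 1.34e-05.

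GLN3, the activator whose activity is set mainly by where the protein resides, differed between media in the reference strain. There it lay at 5.99, 5.98 and 6.04 in N-lim, against 5.87, 5.65 and 5.64 in C-lim. The difference was 0.29 ± 0.062 (log2, standard error), or 1.22-fold, with a limma adjusted p of 0.000515. Centred on array medians it was 0.18 (limma adjusted p = 0.0128). All 8 group means of GLN3, 5.72 to 6.28, lie under 6.66, the 25th percentile of gene means, so it is a dim gene on these arrays.

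In the deletion strains the GLN3 arrays of the media overlapped. In snf1Δtor1Δ they lay at 6.27, 6.24 and 6.34 in N-lim, against 6.29, 6.36 and 6.18 in C-lim, and in snf1Δ at 6.12, 5.89 and 6.03 in N-lim, against 6.04, 5.99 and 6.02 in C-lim. In tor1Δ they lay at 6.07, 6.03 and 5.96 in N-lim, against 5.89, 5.97 and 5.97 in C-lim. The differences were 0.01 (95% interval -0.12 to 0.14) in snf1Δtor1Δ, 0.00 (-0.13 to 0.13) in snf1Δ and 0.08 (-0.05 to 0.21) in tor1Δ, none past the threshold.

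URE2, whose product holds Gln3 in the cytoplasm, was the only member called lower in N-lim in any strain. The N-lim arrays lay between 8.72 and 8.86 in snf1Δtor1Δ, against 8.96 to 9.17 in C-lim, and between 8.41 and 8.74 in tor1Δ, against 8.63 to 8.95 in C-lim. The media did not overlap in snf1Δtor1Δ and overlapped in tor1Δ. URE2 fell by 0.28 in snf1Δtor1Δ (limma adjusted p = 0.0186) and by 0.23 in tor1Δ (limma adjusted p = 0.0438), each with a standard error of 0.098 on the log2 scale. The values were -0.16 in snf1Δ and -0.10 in the reference strain (limma adjusted p = 0.181 and 0.377).

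Both URE2 calls were lost without some single arrays. Over the alternative settings of the fit the limma adjusted p ran from 0.000255 to 0.146 in tor1Δ. In snf1Δtor1Δ it ran from 4.97e-05 to 0.0208. The call in tor1Δ was lost when the fit held only the groups compared (adjusted p = 0.146, limma) and in 6 fits that left out 1 array: tor1Δ C-lim number 7 (0.114) or 9 (0.196), tor1Δ N-lim number 9 (0.0753) or 10 (0.227, with a change of -0.15), snf1Δ C-lim number 12 (0.0502) and snf1Δ N-lim number 9 (0.0505). The call in snf1Δtor1Δ was lost without its C-lim array number 1 (adjusted p = 0.0612) or 3 (0.0714) or its N-lim array number 2 (0.0714), all from limma. With array medians centred, URE2 was also called lower in N-lim in the reference strain, at -0.21 (limma adjusted p = 0.0494).

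**Figure D2:**
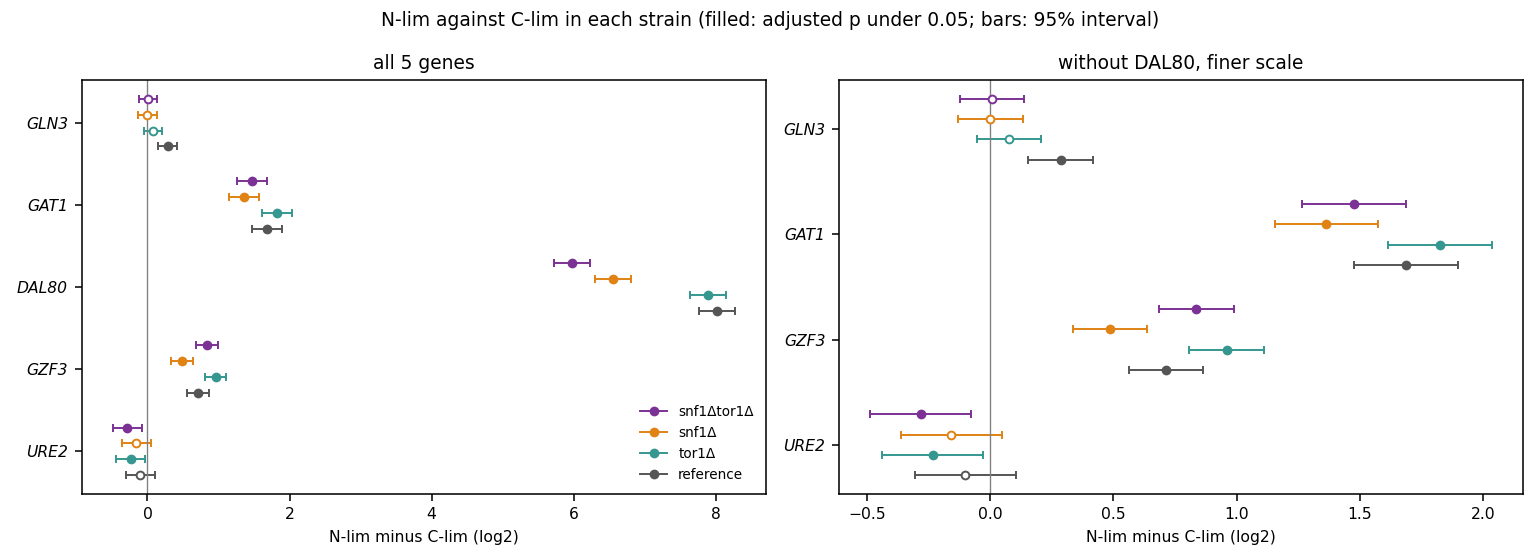
N-lim minus C-lim (log2) with its unadjusted 95% interval for each gene and strain, on 1 scale for all genes on the left and without DAL80 on a finer scale on the right; filled points passed an adjusted p of 0.05. DAL80 runs from 5.97 in snf1Δtor1Δ to 8.02 in the reference strain, and GLN3 stands away from 0 in the reference strain, at 0.29.

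The second question was what the loss of Snf1, of Tor1 or of both does to the 5 genes within a medium. Each deletion strain is set against the same reference arrays, so the comparisons of a medium share their controls. The snf1Δtor1Δ arrays share no number in the sample titles with other strains. Anything that goes with this number cannot be told apart from the double deletion. In N-lim, 4 of the 5 were called in snf1Δtor1Δ, 2 in snf1Δ and 0 in tor1Δ, where 40.3%, 31.1% and 2.92% of all genes were called. In C-lim, 5 of the 5 were called in snf1Δtor1Δ, 3 in snf1Δ and 0 in tor1Δ, where 61.4%, 62.1% and 1.06% of all genes were called. With few genes called in tor1Δ, passing the threshold takes a smaller unadjusted p there, so counts do not compare strains on equal terms. In tor1Δ an unadjusted limma p under 0.05 was reached only by GLN3 and GAT1 in C-lim (0.00192 and 0.0382) and GZF3 in N-lim (0.00485). URE2 in snf1Δtor1Δ under C-lim was called at an unadjusted limma p of 0.0191.

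DAL80 moved in opposite ways in the 2 media when SNF1 was absent. In N-lim it fell by 0.94 in snf1Δtor1Δ (limma adjusted p = 6.59e-06) and by 0.57 in snf1Δ (limma adjusted p = 0.00139). In C-lim it rose by 1.10 in snf1Δtor1Δ, or 2.14-fold (limma adjusted p = 3.58e-07), and by 0.89 in snf1Δ, or 1.85-fold (limma adjusted p = 4.6e-06). The arrays of these strains did not overlap those of the reference strain in either medium. The standard error of each DAL80 difference was 0.12. The C-lim group means of DAL80, 3.54 to 4.64, lie close to the floor of log2 3, and the part of this in the C-lim changes was not tested. In tor1Δ the differences from the reference strain were -0.10 in N-lim (95% interval -0.36 to 0.15) and 0.01 in C-lim (-0.24 to 0.27).

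GAT1 fell in N-lim, by 0.51 in snf1Δtor1Δ (limma adjusted p = 0.000486) and by 0.40 in snf1Δ (limma adjusted p = 0.00561), each with a standard error of 0.10. In C-lim it fell by 0.30 in snf1Δtor1Δ (limma adjusted p = 0.0138) and differed by -0.07 in snf1Δ (limma adjusted p = 0.568). The C-lim call in snf1Δtor1Δ was lost without the array of that group numbered 1 (limma adjusted p = 0.0507) or 2 (0.0703). In snf1Δ the C-lim array numbered 10, at 9.68, stood above the other two, and without it the difference from the reference strain was -0.22 and was called (limma adjusted p = 0.0226). In tor1Δ the differences were -0.09 in N-lim and -0.22 in C-lim, with limma adjusted p of 0.813 and 0.33.

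GLN3 rose in snf1Δtor1Δ in both media. The increase was 0.28 in N-lim (limma adjusted p = 0.00153) and 0.56 in C-lim, or 1.47-fold (limma adjusted p = 4.11e-07), and the arrays did not overlap those of the reference strain. In snf1Δ GLN3 rose by 0.30 in C-lim (limma adjusted p = 0.000416) and differed by 0.01 in N-lim (limma adjusted p = 0.919). After a second quantile normalization the N-lim difference of snf1Δtor1Δ was 0.15 and no longer called (limma adjusted p = 0.0653). In tor1Δ the C-lim difference was 0.23 and missed the threshold (limma adjusted p = 0.0919), and the arrays did not overlap. Without the reference C-lim array numbered 9, which at 5.87 lay above the other two of its group, that difference was 0.30 and was called (limma adjusted p = 0.0217).

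GZF3 rose in C-lim by 0.27 in snf1Δtor1Δ (limma adjusted p = 0.00298) and by 0.31 in snf1Δ (limma adjusted p = 0.00106), each with a standard error of 0.072. After a second quantile normalization the C-lim rise of snf1Δtor1Δ was 0.16 and still called (limma adjusted p = 0.0443). In N-lim GZF3 rose by 0.40 in snf1Δtor1Δ (limma adjusted p = 0.00026), and the differences were 0.08 in snf1Δ and 0.23 in tor1Δ (limma adjusted p = 0.433 and 0.111). The tor1Δ arrays in N-lim, at 7.83 to 7.87, lay above those of the reference strain, at 7.51 to 7.75. That difference was called without the tor1Δ C-lim array numbered 7, which left it at 0.23 with a smaller estimate of the spread (limma adjusted p = 0.0331).

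URE2 rose in snf1Δtor1Δ in C-lim by 0.25 (standard error 0.098, limma adjusted p = 0.0326), with arrays at 8.96 to 9.17, against 8.71 to 8.92 in the reference strain. The call was lost with array medians centred (0.17, limma adjusted p = 0.122), after a second quantile normalization (0.0552), with only the groups compared (0.0533) and with array weights (0.0683). It was also lost without the reference C-lim array numbered 10 (limma adjusted p = 0.142) and without the snf1Δtor1Δ C-lim array numbered 1 (0.0947) or 3 (0.11). The other 5 URE2 differences from the reference strain lay between -0.16 and 0.07 and none was called by limma.

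**Figure D3:**
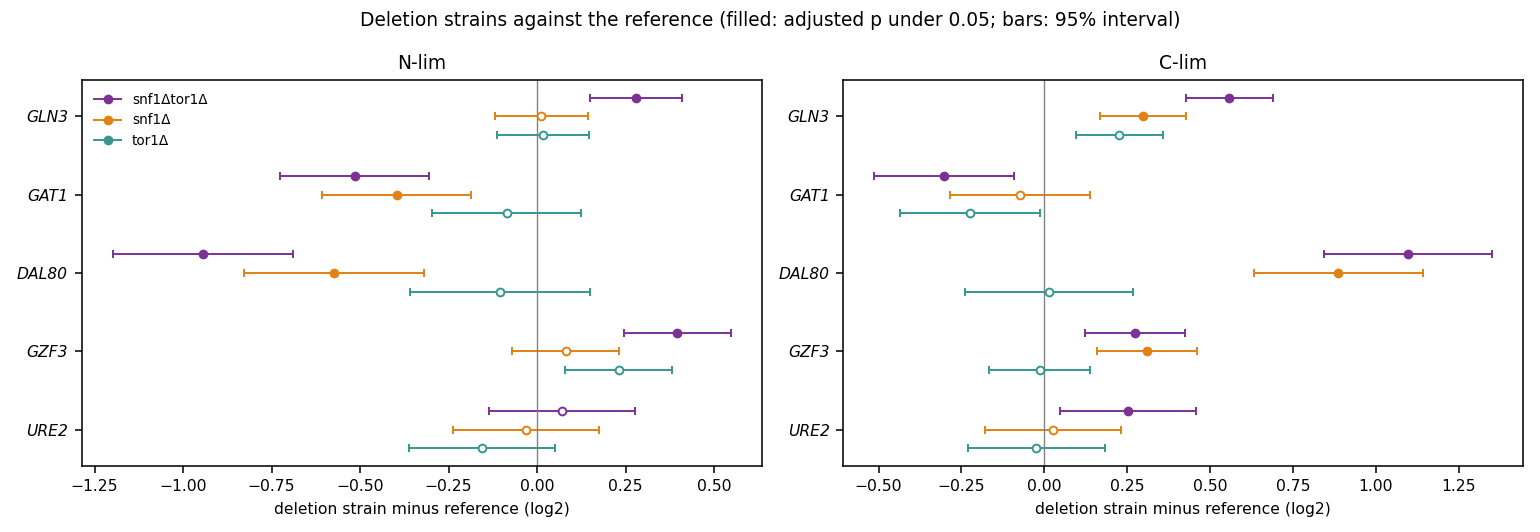
Difference of each deletion strain from the reference strain (log2) with its unadjusted 95% interval, in N-lim (left) and C-lim (right, on its own scale); filled points passed an adjusted p of 0.05. DAL80 lies below 0 in N-lim, at -0.94 and -0.57, and above 0 in C-lim, at 1.10 and 0.89, in snf1Δtor1Δ and snf1Δ, and no tor1Δ point is filled.

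The double deletion was then set against each single deletion. Against snf1Δ, which shows what losing TOR1 adds where SNF1 is already absent, GLN3 and GZF3 were called in N-lim (2 of 5, background 10.6% of genes) and GLN3 in C-lim (1 of 5, background 17.2%). GLN3 was higher in snf1Δtor1Δ by 0.27 in N-lim and 0.26 in C-lim (limma adjusted p = 0.0116 and 0.00804), and GZF3 was higher by 0.31 in N-lim (limma adjusted p = 0.0104). The GLN3 call in N-lim was lost after a second quantile normalization (0.17, limma adjusted p = 0.118), with only the groups compared (0.0737) and without the snf1Δ N-lim array numbered 10 (0.0795). The GLN3 call in C-lim was lost without the snf1Δtor1Δ array numbered 2 (limma adjusted p = 0.052). In C-lim GAT1 differed by -0.23 and URE2 by 0.23, and both missed the threshold (limma adjusted p = 0.128 and 0.126). With array weights both were called (limma adjusted p = 0.0178 and 0.0493), and GAT1 was also called without the snf1Δtor1Δ C-lim array numbered 3 (-0.32, limma adjusted p = 0.0411).

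DAL80 differed between snf1Δtor1Δ and snf1Δ by -0.37 in N-lim and missed the threshold (limma adjusted p = 0.0578). All 3 arrays of snf1Δtor1Δ, at 10.54 to 10.66, lay below all 3 of snf1Δ, at 10.82 to 11.09. The difference was called under 4 alternatives, with limma adjusted p between 0.00539 and 0.0473, and without the reference C-lim array numbered 9 (0.0216) or 10 (0.0181).

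Against tor1Δ, which shows what losing SNF1 adds where TOR1 is already absent, 3 of the 5 were called in N-lim (33.5% of genes) and 4 of the 5 in C-lim (56.0% of genes). In N-lim DAL80 was lower in snf1Δtor1Δ by 0.84 and GAT1 by 0.43, and GLN3 was higher by 0.26 (limma adjusted p = 3.46e-05, 0.00288 and 0.00328). After a second quantile normalization this GLN3 difference was 0.08 and not called (limma adjusted p = 0.361). GZF3 and URE2 differed in N-lim by 0.16 and 0.23 and missed the threshold (limma adjusted p = 0.0877 and 0.0838). With array weights both were called (limma adjusted p = 0.00846 and 0.0118). GZF3 was also called with only the groups compared (limma adjusted p = 0.0316) and without the tor1Δ C-lim array numbered 7 (0.0328), and URE2 without the tor1Δ N-lim array numbered 11 (0.31, adjusted p = 0.035). In C-lim snf1Δtor1Δ was higher in DAL80 by 1.08, in GLN3 by 0.33, in GZF3 by 0.29 and in URE2 by 0.28 (limma adjusted p = 4.91e-07, 0.000176, 0.00231 and 0.0224). The URE2 call was lost with only the groups compared (limma adjusted p = 0.0744), without the tor1Δ C-lim array numbered 8 (0.18, adjusted p = 0.146) and without the snf1Δtor1Δ C-lim array numbered 1 (0.0717) or 3 (0.0831).

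Whether the deletions act together other than by adding up on the log2 scale was tested as a genetic interaction. None of the 5 was called by limma in N-lim (background 0.697% of genes) or in C-lim (5.74%). At an unadjusted p under 0.05 there was 1, GLN3 in N-lim, at 0.25 with a p of 0.011 from limma and an adjusted p of 0.23. With array weights that interaction was 0.29 and was called (limma adjusted p = 0.0125). The DAL80 interactions were -0.27 in N-lim (95% interval -0.62 to 0.09) and 0.20 in C-lim (-0.16 to 0.56).

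Whether a deletion acts differently in the 2 media was tested as the effect in N-lim minus the effect in C-lim. DAL80 and GLN3 were called for snf1Δtor1Δ (2 of 5, background 46.7% of genes) and for snf1Δ (2 of 5, background 47.2%), and 0 of 5 for tor1Δ (background 0.973%; limma, with 2 at an unadjusted p under 0.05). For DAL80 the difference of effects was -2.04 ± 0.17 for snf1Δtor1Δ and -1.46 ± 0.17 for snf1Δ (log2, standard error; limma adjusted p = 1.94e-08 and 1.53e-06). For GLN3 it was -0.28 and -0.29, each with a standard error of 0.088 (limma adjusted p = 0.0143 and 0.0122). In snf1Δ GLN3 was raised in C-lim, by 0.30, and differed by 0.01 in N-lim. In snf1Δtor1Δ it was raised by 0.56 in C-lim and by 0.28 in N-lim. DAL80 was lower in N-lim and higher in C-lim in both strains. For tor1Δ the difference of effects was -0.21 in GLN3 and 0.25 in GZF3, neither called. The reference C-lim group, the lowest of GLN3 at 5.72, enters each of the GLN3 values. Whether the GLN3 pattern is particular to strains without SNF1 was not tested. GAT1 and GZF3 were not called for snf1Δ, at -0.32 and -0.23 (limma adjusted p = 0.0695 and 0.074). GZF3 was called with array weights (-0.30, limma adjusted p = 0.023) and without the reference N-lim array numbered 10 (-0.28, adjusted p = 0.0348) or the tor1Δ C-lim array numbered 7 (0.0259). GAT1 was called without the snf1Δ C-lim array numbered 11 (-0.41, limma adjusted p = 0.0228) or 12 (-0.39, adjusted p = 0.0417).

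The genes were then placed in order of their 8 group means. In GAT1, DAL80 and GZF3 every N-lim array lay above every C-lim array. The share of all genes that separate in this way was not counted. Between media 55.4% of all genes were called in snf1Δ and 67.2% in the reference strain, so this separation is not read as particular to these genes. For DAL80 the order upward was reference and tor1Δ in C-lim (3.54 and 3.55, with overlapping arrays), snf1Δ and snf1Δtor1Δ in C-lim (4.43 and 4.64), then snf1Δtor1Δ, snf1Δ, tor1Δ and reference in N-lim (10.61, 10.98, 11.45 and 11.56). Neighbours in the upper 6 places did not overlap. For GAT1 the 4 C-lim groups, 9.15 to 9.45, overlapped from neighbour to neighbour, and the N-lim order was snf1Δtor1Δ (10.63), snf1Δ (10.75), tor1Δ (11.06) and reference (11.14), of which the last pair overlapped.

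GZF3 ran the other way at the top. Its N-lim order was reference (7.62), snf1Δ (7.70), tor1Δ (7.85) and snf1Δtor1Δ (8.02), of which the first pair overlapped. Its C-lim groups formed a lower pair, tor1Δ and reference (6.89 and 6.91), and an upper pair, snf1Δtor1Δ and snf1Δ (7.18 and 7.22), each overlapping within itself. For GLN3 the reference strain in C-lim stood alone at the bottom (5.72), tor1Δ in C-lim followed (5.94), the next 4 groups, up to 6.02, overlapped from neighbour to neighbour, and both snf1Δtor1Δ groups (6.28 each) stood at the top. For URE2 all neighbours overlapped except the highest, snf1Δtor1Δ in C-lim (9.09), which stood above snf1Δ in C-lim (8.86).

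The genes whose 8 group means followed a member most closely were found by the root mean square difference of the centred means, for members that span at least 1 on the log2 scale. For DAL80 the closest were DAL5 (0.79), which encodes the allantoate permease, PDC5 (0.93), a pyruvate decarboxylase, MF(ALPHA)1 (0.97), a mating pheromone gene, OPT1 (1.04), an oligopeptide transporter, and YBL029W (1.19). DAL5 averaged 11.78, 12.12, 12.32 and 12.52 in N-lim in snf1Δtor1Δ, snf1Δ, tor1Δ and the reference strain, against 7.06, 6.66, 6.26 and 6.44 in C-lim. Its N-lim means stood in the same order of strains as those of DAL80. The same order held in MF(ALPHA)1, OPT1 and YBL029W, and not in PDC5. These genes were picked for their closeness to DAL80, so a shared order is not a separate result. For GAT1 the closest were YPQ2 (0.13), a vacuolar amino acid transporter, YHI9 (0.14), ECM38 (0.14), the vacuolar gamma-glutamyltransferase, APE1 (0.16), a vacuolar aminopeptidase, and YDR124W (0.17). For GZF3 they were YPL150W (0.07), ESP1 (0.08), the separase, SYF1 (0.08), a splicing factor, and SPC110 (0.09), of the spindle pole body.

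The targets of the GATA factors were read from a list of nitrogen catabolic genes, 28 of which were measured. The list was chosen with earlier results of these data known, so its counts and medians are a description. In the reference strain 23 were higher and 4 lower in N-lim (limma), and the median change was 2.07, against 0.08 over all genes, of which 41.5% were higher and 25.7% lower. DAL5 rose by 6.08 and PTR2, a peptide transporter, by 6.65 (limma adjusted p = 8.02e-18 and 5.85e-16). OPT2, another oligopeptide transporter, averaged 12.55 in N-lim and 2.25, at the floor, in C-lim, and DAL1, encoding allantoinase, averaged 7.22 in N-lim and 2.95, also at the floor, in C-lim. Lower in N-lim were GDH2 (-1.20), encoding the catabolic glutamate dehydrogenase, MEP1 (-0.95), an ammonium permease, BAT2 (-0.40), an aminotransferase, and UGA1 (-0.28), the GABA transaminase.

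The deletion strains also had more targets higher than lower in N-lim. In snf1Δtor1Δ 25 were higher and 0 lower, with a median of 1.73 against 0.06 over all genes, of which 35.3% were higher and 23.2% lower. In snf1Δ 25 were higher and 1, BAT2, lower (median 1.50 against 0.04), where 32.4% of all genes were higher and 23.0% lower. In tor1Δ 22 were higher and 3, MEP1, UGA1 and GDH2, lower (median 2.21 against 0.05), where 37.4% of all genes were higher and 27.5% lower. MEP1 was higher in N-lim by 0.92 in snf1Δtor1Δ and by 0.32 in snf1Δ (limma adjusted p = 1.79e-09 and 0.000652), and lower by 0.69 in tor1Δ, where the limma adjusted p was 6.51e-08. The effect of snf1Δtor1Δ on MEP1 differed between N-lim and C-lim by 1.87 (limma adjusted p = 4.21e-11).

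Within N-lim more of the targets fell than rose where SNF1 was absent. In snf1Δtor1Δ 5 of 28 were higher (DAL3, MEP1, MEP3, UGA4 and GDH2) and 15 lower than in the reference strain, with a median of -0.39 against 0.04 over all genes, of which 23.9% were higher and 16.4% lower. In snf1Δ 4 were higher (DAL3, MEP1, UGA4 and GDH2) and 13 lower, with a median of -0.17 against 0.00 over all genes, of which 14.1% were higher and 17.0% lower. Among those that fell were OPT2 (-2.00 in snf1Δtor1Δ and -0.62 in snf1Δ), DUR3, the urea permease (-1.44 and -1.22), and AGP1, an amino acid permease (-1.15 and -1.49). UGA4, the GABA permease, rose by 1.34 in snf1Δtor1Δ and by 1.51 in snf1Δ (limma adjusted p = 0.000423 and 0.000199). In tor1Δ 3 were higher, DAL4 (0.93), DAL3 (0.71) and DAL2 (0.52), all of the allantoin pathway, and 1 was lower, OPT2 (-0.55), where 0.716% of all genes were higher and 2.20% lower.

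Within C-lim targets moved both ways. In snf1Δtor1Δ 9 were higher and 11 lower than in the reference strain, with a median of -0.22 against 0.13 over all genes, of which 42.7% were higher and 18.8% lower. With values under the floor set to the floor this median was -0.14. In snf1Δ 13 were higher and 8 lower (median 0.22 against 0.10), where 40.5% of all genes were higher and 21.6% lower. In tor1Δ the 1 call was GLN1, encoding glutamine synthetase, at -0.28 (limma adjusted p = 0.0408), where 0.606% of all genes were higher and 0.459% lower. PTR2 rose most, by 4.09 in snf1Δtor1Δ and 4.12 in snf1Δ (limma adjusted p = 1.78e-12 and 2.11e-12). DCG1, a gene of the allantoin cluster, rose by 1.22 and 1.62, and GDH2 fell by 1.04 and 1.24, in snf1Δtor1Δ and snf1Δ.

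**Figure D4:**
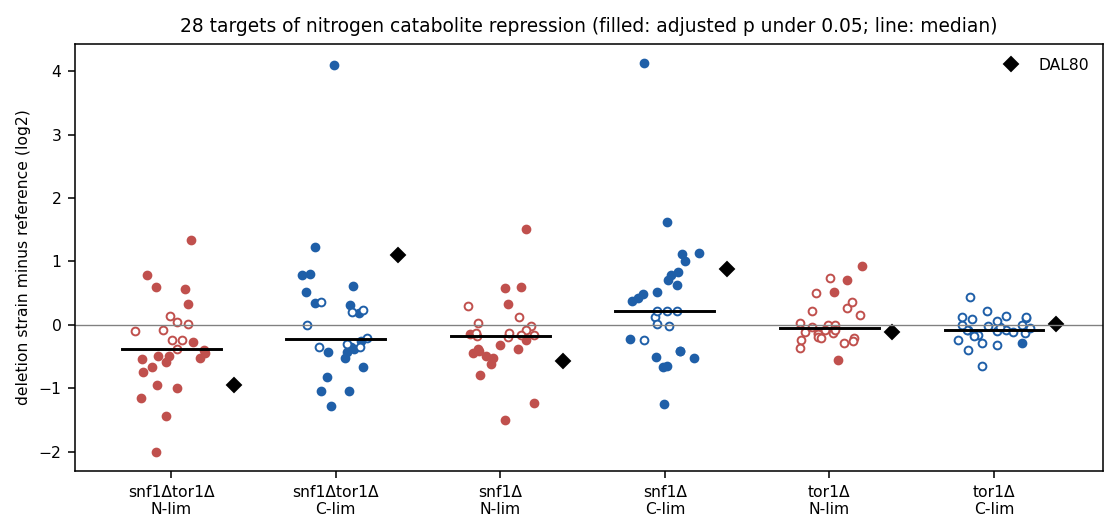
Difference from the reference strain (log2) of 28 targets of nitrogen catabolite repression in each deletion strain and medium, with the list's median as a line and DAL80 as a diamond beside it; filled points passed an adjusted p of 0.05. Medians run from -0.39 in snf1Δtor1Δ under N-lim to 0.22 in snf1Δ under C-lim, and DAL80 lies below 0 in the N-lim columns and above 0 in the C-lim columns of the strains without SNF1.

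The regulators that act beside the GATA factors on single pathways also differed between media. Of all genes 58.6% were called between media in snf1Δtor1Δ, 55.4% in snf1Δ, 64.9% in tor1Δ and 67.2% in the reference strain. The calls by themselves thus do not set these 4 genes apart. DAL81 and DAL82, activators of the allantoin and urea genes, were higher in N-lim in all 4 strains, by 0.83 and 0.39 in snf1Δtor1Δ, 0.38 and 0.34 in snf1Δ, 1.04 and 0.97 in tor1Δ and 1.09 and 0.96 in the reference strain, with a limma adjusted p of at most 0.000763. UGA3, the activator of the GABA genes, was lower in N-lim by 0.33 in snf1Δtor1Δ and by 0.26 in snf1Δ, and higher by 0.62 in tor1Δ and 0.70 in the reference strain, all called by limma. PUT3, the activator of proline use, was lower by 0.25 in snf1Δ, 0.26 in tor1Δ and 0.47 in the reference strain, and not called in snf1Δtor1Δ (0.07, limma adjusted p = 0.413). The median of the 4 was 0.23 in snf1Δtor1Δ, 0.05 in snf1Δ, 0.80 in tor1Δ and 0.83 in the reference strain, against medians over all genes of 0.06, 0.04, 0.05 and 0.08.

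Of 6 other genes with a GATA-type zinc finger, GAT2 and ASH1 were higher and SRD1 lower in N-lim in the reference strain, by 0.48, 0.61 and -1.30, where 41.5% of all genes were higher and 25.7% lower. The other 3, GAT3, GAT4 and ECM23, averaged 2.18 to 2.25 in every group, below the floor of 3, so no change in them could be read. ASH1 is known as the repressor of HO in daughter cells. GAT2 was lower than in the reference strain by 0.94 in snf1Δtor1Δ and 0.77 in snf1Δ under N-lim and by 0.54 and 1.04 under C-lim, with a limma adjusted p of at most 7.48e-07. None of the 3 genes above the floor was called in tor1Δ against the reference strain in either medium, where only 2.92% (N-lim) and 1.06% (C-lim) of all genes were called.

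Upstream, 14 genes of TORC1 and its phosphatase branch were counted, TOR1 itself left out. In the reference strain 10 were higher and 2 lower (PPH22 and RRD1, of the phosphatase branch) in N-lim, where 41.5% of all genes were higher and 25.7% lower, with a median of 0.28 against 0.08 over all genes. NPR3 and NPR2, of the complex that restrains TORC1, rose by 1.36 and 1.03 and KOG1, the TORC1 scaffold, by 0.91 (limma adjusted p at most 4.34e-08). Within N-lim snf1Δtor1Δ had 2 higher (TCO89 and NPR1) and snf1Δ 5 lower (TAP42, RRD1, RRD2, NPR2 and NPR3) than the reference strain, with medians of -0.02 and -0.15 against 0.04 and 0.00 over all genes. Of all genes 23.9% were higher and 16.4% lower in snf1Δtor1Δ, and 14.1% higher and 17.0% lower in snf1Δ. Within C-lim snf1Δtor1Δ had 6 higher and 1 lower (RRD1), and snf1Δ had 3 higher (KOG1, NPR2 and NPR3) and 3 lower (TAP42, RRD1 and RRD2), with medians of 0.15 and 0.06 against 0.13 and 0.10. There 42.7% of all genes were higher and 18.8% lower in snf1Δtor1Δ, and 40.5% higher and 21.6% lower in snf1Δ. None of the 14 was called in tor1Δ in either medium, where 2.92% (N-lim) and 1.06% (C-lim) of all genes were.

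URE2 also followed the place of an array within its group. Ordered by the number in the sample titles, the second array was the lowest of the 3 in 8 of 8 groups, by 0.06 to 0.19 below the group mean, a pattern shared by 152 of all 5449 genes (2.79%). DAL80 was lowest on the second array in 2 groups, GZF3 in 3, and GLN3 and GAT1 in 4 each. The part of this pattern in the URE2 results was not tested beyond a fit with the place as a block, chosen after the data were seen. In that fit the URE2 comparisons called before kept their calls, and 5 that had missed the threshold were called. URE2 was lower in N-lim than in C-lim in snf1Δ as well (-0.16, limma adjusted p = 0.00678). It was higher in snf1Δtor1Δ than in snf1Δ under C-lim (0.23, limma adjusted p = 0.00289) and higher than in tor1Δ under N-lim (0.23, limma adjusted p = 0.00112). The genetic interaction in C-lim was 0.25 (limma adjusted p = 0.0293), and the snf1Δtor1Δ effect in N-lim minus that in C-lim was -0.18 (limma adjusted p = 0.0288).

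**Figure D5:**
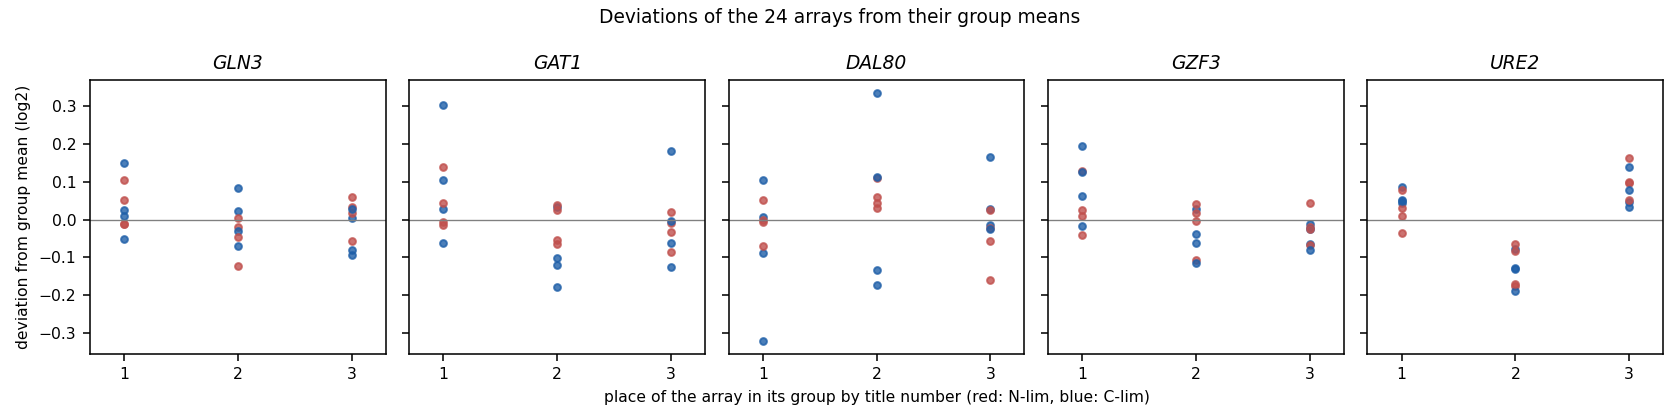
Deviation of each of the 24 arrays from its group mean (log2) for the 5 genes, by the place of the array in its group when ordered by title number, with N-lim in red and C-lim in blue. In URE2 all 8 second arrays lie between -0.19 and -0.06, and in the other genes the second arrays lie on both sides of 0.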

How the data were processed

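Per the submitters' processing notes, the authors made the deposited log2 values using affy and RMA. Neither versions nor whether all arrays were normalized together is stated in the sources used here. Of 5716 probe sets 5498 are paired with 1 gene by the platform annotation and 218 with none. The brightest probe set was kept for 47 genes with several, 12 symbols were updated through RefSeq (R64), and 5449 genes were tested.

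Groups came from titles and genotype and medium labels. limma 3.58.1 in R 4.3.3 fitted 8 group means over 24 arrays (16 residual degrees of freedom, plus 1.71 prior), from which came 19 comparisons, each adjusted by Benjamini-Hochberg over all genes at 0.05. The fit was tested on simulated data with independent noise and 200 genes changed in the reference N-lim group. These data hold no deviations shared by place within the group, so that test does not cover them. The 5 genes and all lists were chosen with earlier results of these data known; DUR1,2 was not analysed here. A list is described by at most its 4 largest called changes per comparison, with all genes of a count up to 5; like genes are the 5 closest, of which 1 for GZF3 is not reported here. Exceptions, such as MEP1, DAL81 and the smaller changes of shown genes in other strains, were named after their values were seen.

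Alternatives changed scaling, filter, probe set rule, floor, samples in the fit, variance model, array weights and blocks, and left out each array in turn. No sequences are shown.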

Additional observations from a re-analysis of the deposited data

Results flagged for a closer look

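The effect of losing SNF1 alone (snf1Δ), and of losing SNF1 and TOR1 together (snf1Δtor1Δ), differed between the media for 2 of the 5 genes, by limma's interaction term. Of all genes 47.2% were called for this term in snf1Δ and 46.7% in snf1Δtor1Δ, so the count does not set these genes apart. Both strains were set against the reference strain. For DAL80 the effect in N-lim minus that in C-lim was -1.46 in snf1Δ (adjusted p = 1.53e-06) and -2.04 in snf1Δtor1Δ (adjusted p = 1.94e-08). With any 1 array left out it lay between -1.63 and -1.30 in snf1Δ and between -2.21 and -1.88 in snf1Δtor1Δ, called each time. For GLN3 the difference was -0.29 in snf1Δ (limma adjusted p = 0.0122) and -0.28 in snf1Δtor1Δ (limma adjusted p = 0.0143). In tor1Δ the GLN3 difference was -0.21 and was not called. The 3 reference C-lim arrays enter all of these values.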

How the results depend on the processing

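Of 95 results for the 5 genes (19 comparisons each), 43 were called. Under 11 alternatives 6 of the called results lost the call in 1 or more, and with 1 array left out 7 did; all of these were changes of GLN3, GAT1 or URE2 with a size of at most 0.30 on the log2 scale, and their values stand beside the results. Of the results not called, 12 gained a call in 1 or more alternatives and 9 with 1 array left out. No called result changed direction. The 4 calls of DAL80 and of GAT1, and the 4 of GZF3, between media held in all alternatives fitted and with any array left out. The count of genetic interactions called was 0, and 1 with array weights (GLN3 in N-lim) and 1 with the place within the group as a block (URE2 in C-lim, limma adjusted p = 0.0293). The count of deletion effects that differ between media was 4, and 2 without dim genes, where GLN3 is left out of the test; it was 5 with array weights, and 6 with either the title number or the place within the group as a fixed block (for the place, GZF3 in snf1Δ, limma adjusted p = 0.0419, and URE2 in snf1Δtor1Δ, 0.0288, were gained). With the title number as a fixed replicate block the count of limitation effects was 15, as without it. GAT1 and GZF3 were the 2 genes that gained a call, for the snf1Δ effect in N-lim minus that in C-lim (-0.40 and -0.28, limma adjusted p = 0.0302 and 0.0271). The block changed no call of snf1Δ or tor1Δ against the reference strain. It could not be fitted where snf1Δtor1Δ is set against another strain within a medium, nor to the genetic interactions, since snf1Δtor1Δ shares no title number with other strains. As a random block within strain (correlation 0.0437) the title number changed no call. Deviations from group means correlated between N-lim and C-lim arrays of equal number at 0.23 to 0.37 in the reference strain, 0.12 to 0.20 in snf1Δtor1Δ, -0.29 and -0.21 in snf1Δ and 0.20 in the only tor1Δ pair. All 6 arrays of the reference strain, all 6 of snf1Δtor1Δ and 0 of 6 of snf1Δ correlated best with their own number. In tor1Δ 2 of 6 arrays did, those of the 1 number its media share. In tor1Δ and snf1Δ shared numbers stand at different places in the groups. An equal number is also an equal place within the group in the reference strain and snf1Δtor1Δ, so the numbers were not taken to pair cultures. Signal near the floor limits DAL80 in C-lim, and dim signal limits GLN3.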

Other observations

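Array deviations from their group means, over all genes, correlated by place within the group. Between second arrays of different groups, ordered by title number, the correlation ran from 0.01 to 0.54 with a median of 0.29 (28 pairs), while between a second array and any other array of another group the median was -0.17 (112 pairs). The labels name no batch that goes with this place, and points share arrays and genes, so these values are a description.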
